A study of Homo sapiens with 18 samples.

Results

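The integrin and laminin subunit genes of MDA-MB-231 cells were followed across the 6 groups of an RNA-seq experiment on the loss of GPS2. The members were taken by name, as every protein-coding gene for an integrin alpha subunit (18 genes), an integrin beta subunit (8 genes) or a laminin chain (12 genes), and all 38 were found among the 57448 genes of the count matrix. Earlier results of these data were known when the set was chosen. The study had already reported integrin and laminin terms among genes lower in GPS2-deleted cells, so the direction found here is not independent support. Of these, 26 were expressed highly enough to be tested, at 1 CPM (a gene's count scaled to the total of its library) or more in at least 3 of the 18 libraries. They were 9 alpha subunits, 7 beta subunits and 10 laminin chains.

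MDA-MB-231 is a triple negative breast cancer line of mesenchymal type, and each group held 3 replicates. WT is the parental line without modification. KO1 and KO2 are mixed populations of GPS2-targeted cells rather than single clones, and each received Cas9 and its own sgRNA set by lentivirus. The myrAKT cells carry a retroviral myristoylated AKT, which is held at the membrane and constitutively active. KO1+MK and KO2+MK are the same pools exposed to 10 µM MK2206, an allosteric AKT inhibitor, for 4 h. WT cells carry no vector by their labels and the untreated KO cells are labelled untreated with no vehicle named, so that effects of transduction or vehicle cannot be told apart from those of the knockout, of myrAKT or of MK2206. Nothing says that replicates came from separate cultures, and p-values then measure the spread between these libraries only.

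Integrins are receptors of paired alpha and beta subunits that span the membrane and tie the extracellular matrix to the actin cytoskeleton. The pairing sets the ligand. ITGB1 joins most alpha subunits, among them the collagen receptors ITGA1, ITGA2 and ITGA10, the laminin receptors ITGA3, ITGA6 and ITGA7, and the fibronectin receptor ITGA5, whereas ITGAV also pairs with ITGB3, ITGB5, ITGB6 and ITGB8, and ITGB4 pairs with ITGA6 in the hemidesmosome. Laminins are secreted trimers of an alpha, a beta and a gamma chain that build the basement membrane, and LAMA3 and LAMB3 are chains of the laminin that anchors epithelial cells through ITGA6 and ITGB4.

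The depth of the libraries, as reads assigned to genes, ran from 23419198 to 39319910, and the 6 MK2206-treated libraries, at 23419198 to 29939536, were shallower than all others, which had 30287210 or more. GPS2 RNA was 4.59 ± 0.360 CPM (SD, n = 3) in WT, 4.53 ± 0.0676 CPM in the libraries labelled KO1 and 6.06 ± 0.156 CPM in those labelled KO2. The KO1 libraries thus lay within the WT range (4.45 to 4.57 against 4.29 to 4.99 CPM) and the KO2 libraries above it. Counts per gene, which do not show an edited sequence, give no check of the KO labels. AKT1 RNA was 136 ± 3.26 CPM in WT and 226 ± 16.5 CPM in myrAKT cells (SD, n = 3), with no overlap between their libraries. Of the markers that fit the line, VIM, which marks mesenchymal cells, lay between 1283 and 1819.6 CPM, and KRT18, a keratin, between 143 and 287 CPM. Of those held to be low in it, ESR1 lay between 0.701 and 1.34 CPM, PGR between 0 and 0.140 CPM, CDH1 between 0 and 0.125 CPM and EPCAM between 3.14 and 12.2 CPM, whereas ERBB2, which was placed among the low markers too, was clearly detected, between 80.6 and 93.0 CPM. All 7 leukocyte markers, the member ITGAM among them, together summed to 2.22 to 4.52 CPM and the 4 platelet markers to 1.99 to 4.71 CPM in the 18 libraries, the highest sum of both being that of a myrAKT library, and PF4 and PPBP, which define platelets, had 0 counts in every library.

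To compare genes with each other, levels were expressed as CPM (on libraries normalized by TMM) per kilobase of annotated exon. In WT cells ITGA3 led the alpha subunits with 166 CPM per kilobase, or 40.4% ± 1.08 of the summed alpha subunit level (SD, n = 3), followed by ITGA2 (29.7%), ITGA6 (17.9%), ITGA5 (7.33%) and ITGAV (2.31%). ITGA1, ITGAE and ITGA10 came next at 0.920%, 0.694% and 0.647%, with the other alpha subunits below them. Among beta subunits ITGB1 held 55.5% ± 0.762, ITGB5 30.4% and ITGB4 10.4%. The remaining beta subunits were ITGB2 (2.04%), ITGB3 (1.26%), ITGB8 (0.205%), ITGB6 (0.0737%) and ITGB7 (0.0718%).

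The laminin chains were more uneven. LAMA5 accounted for 82.3% ± 0.304 of the summed laminin alpha level in WT (SD, n = 3), with LAMA4 at 8.69%, LAMA3 at 7.33%, LAMA1 at 1.58% and LAMA2 at 0.0973%. LAMB3 led the beta chains with 64.2%, before LAMB2 (31.6%) and LAMB1 (4.24%). LAMC1 lay at 41.8 CPM per kilobase. These shares rest on the lengths of all annotated exons, and with the longest transcript in their place ITGB4, for example, held 5.82% of the beta subunits and ITGA3 50.5% of the alpha subunits, with the leading gene of each class unchanged in WT.

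**Figure D1:**
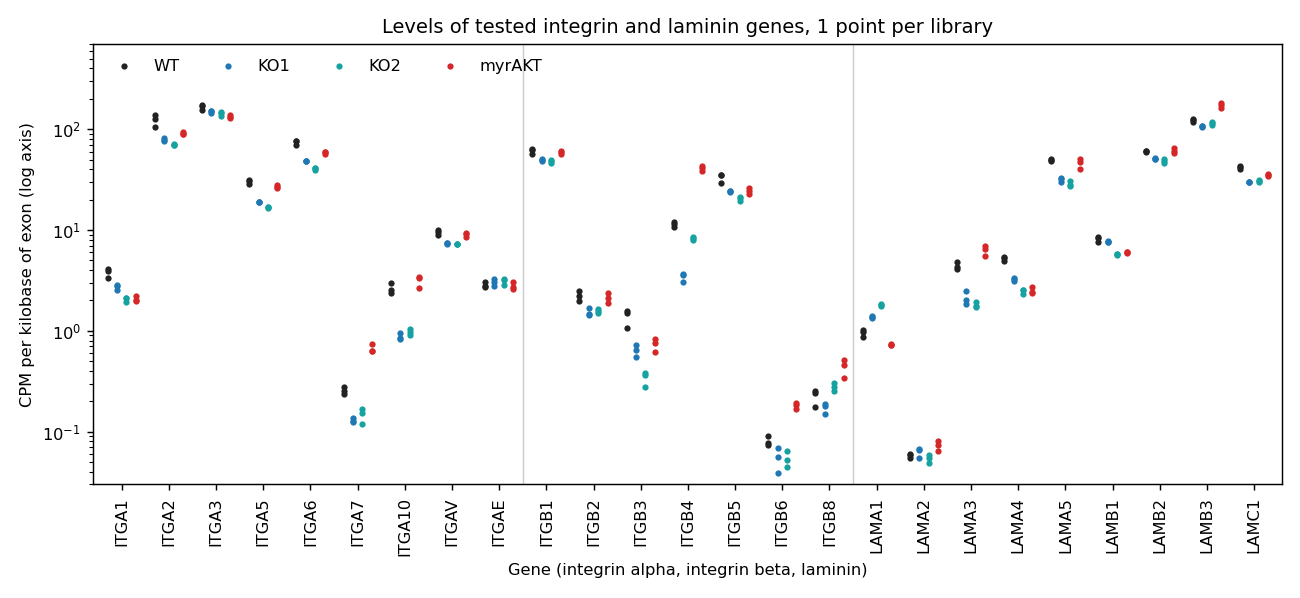
Levels of tested genes in WT, KO1, KO2 and myrAKT cells, as CPM per kilobase of exon on a log axis with 1 point per library. ITGA3, ITGB1, LAMA5 and LAMB3 led their classes in WT, and ITGB4 stood at 11.4 in WT, 3.44 in KO1, 8.27 in KO2 and 41.1 in myrAKT cells.

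The genes below the filter were ITGA4, ITGA8, ITGA9, ITGA11, ITGA2B, ITGAL, ITGAM, ITGAX, ITGAD, ITGB7, LAMB4 and LAMC3. The mean of the group in which each was highest ranged from 0.0277 CPM (ITGA8) to 0.895 CPM (ITGA11). ITGA4, ITGAL, ITGAM, ITGAX and ITGAD are the alpha subunits of leukocytes, and ITGB7 their partner with ITGA4. ITGA2B, the platelet fibrinogen receptor, had 1.00, 0.673 and 0.988 CPM in the WT libraries, 0.292, 0.324 and 0.280 CPM in KO1 and 0.259, 0.282 and 0.222 CPM in KO2. When the filter was dropped it was lower in KO than in WT cells (log2 fold change −1.66, SE 0.259, edgeR adjusted p = 8.53e-06), and none of the other 11 was called in this comparison. Exons of ITGB7 share 42.3% of their bases with ZNF740 on the opposite strand and those of ITGA4 share 26.4% with CERKL. Whether the counting used strand is not given in the sources used here, so that reads of such pairs cannot be told apart. The same holds on a smaller part of the exons for LAMA1 (10.3% shared with ENSG00000265069, which had a mean of 0.333 counts), ITGA1 (7.47% with ITGA2-AS1), LAMA5 (1.71% with ADRM1), LAMB1 (1.61% with DLD) and ITGA7 (1.31% with BLOC1S1, at a mean of 227 counts beside 76.5 for ITGA7). On the same strand ITGA1 shares 2.69% of its exon bases with PELO and ITGB3 33.2% with ENSG00000259753, which had 0 counts. ITGB6 shares 16.7% on its own strand with ENSG00000285155, which is not in the count matrix.

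To ask how loss of GPS2 affected these genes, the 6 untreated libraries of KO1 and KO2 were set against the 3 of WT. A gene was called at an adjusted p of at most 0.001, taken over all 15587 genes tested. Integrin and laminin RNAs were mostly lower in KO cells: 18 of the 26 tested members were lower, against 16.6% of all genes, and LAMA1 alone was higher, against 15.5% of all genes. With a fold change of at least 1.5 as well, 12 members were lower (8.59% of all genes) and 1 was higher (4.07%). The median log2 fold change of the 26 members was −0.59, beside −0.00291 for all genes, and 24 of the 26 lay below 0, as did 50.3% of all genes. By class, 8 of 9 alpha subunits, 4 of 7 beta subunits and 6 of 10 laminin chains were lower. In each pool by itself 20 members were lower and 1 was higher, where 21.3% and 20.5% of all genes were lower and higher in KO1, and 22.2% and 20.8% in KO2. Without 1 library, the calls lost within a pool were those of ITGA3 and ITGB2 in either pool and of ITGA7 in KO2, the last in all 6 such fits (−0.94 to −0.71). In a population of cells, fewer cells expressing a gene and less RNA per cell cannot be told apart.

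**Figure D2:**
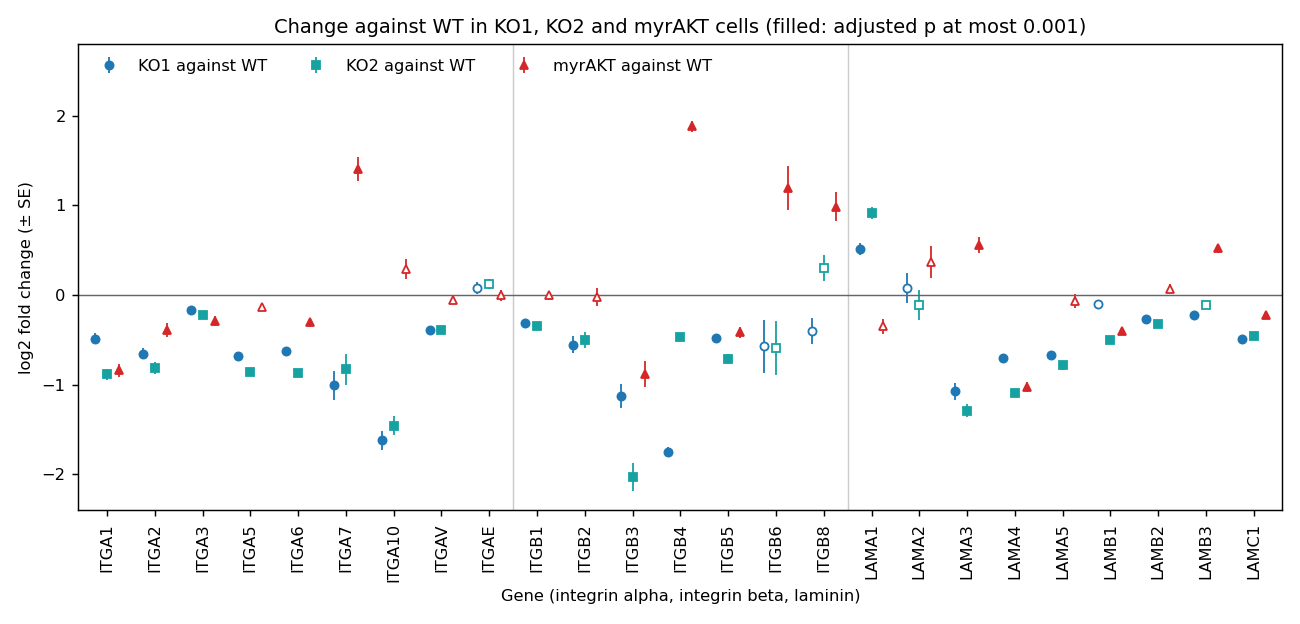
Log2 fold change against WT, with its SE, of tested genes in KO1, KO2 and myrAKT cells, with filled symbols for genes called at an adjusted p of at most 0.001. All 3 comparisons share the WT libraries. Filled KO1 and KO2 symbols lie below 0 except for LAMA1, while filled myrAKT symbols lie on both sides, from −1.03 for LAMA4 to 1.88 for ITGB4.

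The promoters of LAMA3, ITGA10 and ITGA5 are shown because, of the members that fell by at least 1.5-fold in KO cells, these were the ones whose start sites hold the letters of an AP-1 or TEAD motif, and they were chosen for that after the search. RefSeq (GRCh38.p14) gave a promoter of 300 bases, from 250 before to 50 after the start site, for 26 of the 38 members. Capitals mark matches on either strand to TGANTCA, the AP-1 motif, or GGAATG, the core of the TEAD motif, and each sequence is written 5′ to 3′ along the gene's strand. AP-1 letters were found in 7.71% of 35116 promoters of this length and TEAD letters in 14.0%. The LAMA3 window lies at a RefSeq start site inside the GENCODE gene.
LAMA3 (chr18:23872770-23873069, plus strand): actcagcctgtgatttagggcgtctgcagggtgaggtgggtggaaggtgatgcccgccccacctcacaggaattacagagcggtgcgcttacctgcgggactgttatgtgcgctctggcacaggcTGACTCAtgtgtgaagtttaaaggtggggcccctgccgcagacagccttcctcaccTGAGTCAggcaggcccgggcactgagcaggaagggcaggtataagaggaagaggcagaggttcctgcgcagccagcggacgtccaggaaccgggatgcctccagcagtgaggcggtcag
ITGA10 (chr1:145910001-145910300, minus strand): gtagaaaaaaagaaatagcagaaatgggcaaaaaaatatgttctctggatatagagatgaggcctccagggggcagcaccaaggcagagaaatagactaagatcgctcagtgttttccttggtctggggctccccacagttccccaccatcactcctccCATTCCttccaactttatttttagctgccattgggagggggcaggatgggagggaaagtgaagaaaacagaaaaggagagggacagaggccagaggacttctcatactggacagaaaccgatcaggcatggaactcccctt
ITGA5 (chr12:54419217-54419516, minus strand): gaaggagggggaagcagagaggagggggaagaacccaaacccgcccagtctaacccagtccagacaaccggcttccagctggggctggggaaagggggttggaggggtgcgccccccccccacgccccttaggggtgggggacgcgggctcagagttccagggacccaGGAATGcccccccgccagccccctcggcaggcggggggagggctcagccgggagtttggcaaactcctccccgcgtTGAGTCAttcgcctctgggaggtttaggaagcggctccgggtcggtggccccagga
LAMA3 has 2 AP-1 matches, beginning 125 and 69 bases before the start site. ITGA5 has an AP-1 match beginning 6 bases before its start site and a TEAD match beginning 82 bases before it, and ITGA10 has a TEAD match at 91 bases before. Of the other members, ITGB1 and LAMA2 had a TEAD match each, and no member had the forkhead letters TGTTTAC, which 3.42% of promoters hold. A match describes letters only and no binding was measured.

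Among the collagen receptors, ITGA10, whose promoter is given above, fell furthest (ENSG00000143127, chromosome 1, 145891208 to 145910111, minus strand of hg38). It had 18.6, 14.8 and 16.0 CPM in the WT libraries, 5.28, 5.15 and 5.89 CPM in KO1 and 6.47, 6.02 and 5.62 CPM in KO2 (log2 fold change −1.54, SE 0.0961, edgeR adjusted p = 3.09e-07). Every KO library lay far below the lowest WT library, and KO1 and KO2 overlapped each other. ITGA2, the main collagen receptor subunit of these cells by level, had 821, 1084 and 999 CPM in WT, 622, 641 and 607 CPM in KO1 and 559, 549 and 547 CPM in KO2 (log2 fold change −0.74, SE 0.0726, edgeR adjusted p = 6.10e-06), with the groups again apart. ITGA1 had 61.5, 76.8 and 72.9 CPM in WT, 51.6, 53.2 and 47.5 CPM in KO1 and 39.7, 38.9 and 36.1 CPM in KO2 (log2 fold change −0.68, SE 0.118, edgeR adjusted p = 4.30e-04), and the 3 groups did not overlap. Its call was lost without WT replicate 1 (−0.74), 2 (−0.60) or 3 (−0.64), although each pool by itself was called (−0.49 in KO1 and −0.88 in KO2).

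Laminin and fibronectin receptor subunits fell with them. ITGA6 had 462, 509 and 507 CPM in the WT libraries, 322, 326 and 324 CPM in KO1 and 274, 264 and 273 CPM in KO2 (log2 fold change −0.75, SE 0.0720, edgeR adjusted p = 5.09e-06). ITGA5, the alpha subunit of the fibronectin receptor, had 211, 227 and 230.0 CPM in WT, 141, 141 and 141 CPM in KO1 and 124, 121 and 126 CPM in KO2 (log2 fold change −0.77, SE 0.0553, edgeR adjusted p = 6.91e-07). For both genes KO2 was the lowest group and no library of 1 group reached another. ITGA7, a laminin receptor best known from muscle, was low throughout, with 2.55, 2.16 and 2.30 CPM in WT, 1.14, 1.16 and 1.23 CPM in KO1 and 1.38, 1.08 and 1.52 CPM in KO2 (log2 fold change −0.92, SE 0.138, edgeR adjusted p = 1.39e-04). Its counts were 77 to 89 per WT library and 42 to 55 per KO library, and its call was lost without WT replicate 1 (−0.83) or 3 (−0.92).

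The smaller changes of the alpha subunits were those of ITGAV and ITGA3. ITGAV, which joins several beta subunits, had 184 ± 9.26 CPM in WT (SD, n = 3) and 142 ± 1.01 CPM in the KO libraries (SD, n = 6; log2 fold change −0.39, SE 0.0298, edgeR adjusted p = 9.83e-07). ITGA3, the most abundant alpha subunit, moved least of those called, with 1628 ± 88.4 CPM in WT and 1431 ± 54.9 CPM in KO libraries (n = 3 and n = 6; log2 fold change −0.20, SE 0.0394, edgeR adjusted p = 8.88e-04). This call was lost in 8 of the 9 fits that left out a library, all except that without KO1 replicate 2, at log2 fold changes of −0.22 to −0.17. ITGA3 thereby made up 48.1% of the alpha subunit level in KO1 and 50.3% in KO2, against 40.4% in WT. ITGAE, which pairs with ITGB7 to bind E-cadherin, was not called at 18.8 ± 1.01 CPM in WT and 20.4 ± 1.40 CPM in KO (SD, n = 3 and n = 6). Its exons share 6.47% of their bases with HASPIN on the opposite strand.

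Of the beta subunits, ITGB3 fell most in both pools together. It had 7.32, 10.8 and 10.2 CPM in the WT libraries, 3.79, 4.99 and 4.37 CPM in KO1 and 2.47, 2.59 and 1.91 CPM in KO2 (log2 fold change −1.51, SE 0.246, edgeR adjusted p = 2.60e-04). KO2 lay below KO1, and both lay below WT with no overlap. The call was lost without WT replicate 2 (−1.40) or 3 (−1.44), but each pool by itself was called (−1.13 in KO1 and −2.03 in KO2). ITGB5, like ITGB3 a partner of ITGAV in vitronectin binding, had 192, 229.5 and 229.6 CPM in WT, 154, 160.3 and 159 CPM in KO1 and 138, 125 and 136 CPM in KO2 (log2 fold change −0.60, SE 0.0773, edgeR adjusted p = 4.79e-05). ITGB1, the common partner, had 883 ± 48.1 CPM in WT (SD, n = 3) and 709.6 ± 22.7 CPM in KO libraries (SD, n = 6; log2 fold change −0.33, SE 0.0365, edgeR adjusted p = 1.31e-05). ITGB2, the beta subunit of leukocyte integrins, was found at 14.3 to 18.1 CPM in WT and 10.5 to 12.3 CPM in KO (log2 fold change −0.54, SE 0.0866, edgeR adjusted p = 2.40e-04), a call lost without WT replicate 1 (−0.42) or 3 (−0.53). The leukocyte marker sums were 2.40 to 4.29 CPM in WT, 2.25 to 2.78 in KO1 and 2.61 to 2.85 in KO2, and their part in the ITGB2 level was not tested.

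ITGB4, the beta subunit of the hemidesmosome integrin, was lower in both pools but to an unequal degree. It had 72.4, 78.0 and 81.1 CPM in WT, 24.6, 24.3 and 20.8 CPM in KO1 and 56.5, 53.9 and 57.3 CPM in KO2. Each pool was called by itself, KO1 with a log2 fold change of −1.75 (SE 0.0582, edgeR adjusted p = 4.43e-11) and KO2 with a log2 fold change of −0.47 (SE 0.0388, edgeR adjusted p = 2.08e-07). With both pools as 1 group it was not called (edgeR adjusted p = 0.0166), and with the pools kept as separate groups and averaged it was (log2 fold change −1.12, SE 0.0436, edgeR adjusted p = 4.28e-13). LAMB1 (−0.31) and LAMB3 (−0.17) were called in that fit as well, so that 21 members were lower and 1 was higher, where 26.2% and 23.8% of all genes were. The remaining beta subunits were not called in either pool. ITGB8, a partner of ITGAV in the activation of latent TGF-beta, lay at 2.66 to 3.87 CPM in WT, 2.26 to 2.86 CPM in KO1 and 3.88 to 4.56 CPM in KO2. ITGB6 lay at 0.429 to 0.521 CPM in WT and 0.224 to 0.398 CPM in KO.

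Of the laminin chains of epithelial anchorage, LAMA3 fell by at least 1.5-fold and LAMB3 did not. LAMA3 (ENSG00000053747, chromosome 18, 23689453 to 23956222, plus strand of hg38) had 69.2, 60.0 and 61.9 CPM in the WT libraries, 29.5, 35.9 and 26.6 CPM in KO1 and 25.3, 28.1 and 25.0 CPM in KO2 (log2 fold change −1.19, SE 0.106, edgeR adjusted p = 2.95e-06). Every KO library lay below every WT library, and the 2 pools overlapped. LAMB3 was called in KO1 (log2 fold change −0.22, SE 0.0294, edgeR adjusted p = 9.38e-06) and not in KO2 (edgeR adjusted p = 0.0132), where it lay at 507 to 545 CPM against 549.7 to 586 CPM in WT.

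The other laminin alpha chains moved in both directions. LAMA5, the most abundant laminin alpha chain, had 715, 718 and 684 CPM in WT, 455, 468 and 427 CPM in KO1 and 403, 437 and 394 CPM in KO2 (log2 fold change −0.73, SE 0.0579, edgeR adjusted p = 1.29e-06). LAMA4, a chain of vascular and muscle basement membranes, had 58.4, 65.0 and 63.8 CPM in WT, 37.6, 39.7 and 38.9 CPM in KO1 and 30.2, 28.0 and 30.4 CPM in KO2 (log2 fold change −0.89, SE 0.104, edgeR adjusted p = 2.19e-05). Both were lower in each KO library than in any WT library. LAMA1, a chain of embryonic basement membranes, went the other way, with 16.1, 15.4 and 13.8 CPM in WT, 22.4, 21.2 and 22.0 CPM in KO1 and 28.6, 29.1 and 28.0 CPM in KO2 (log2 fold change 0.72, SE 0.121, edgeR adjusted p = 3.24e-04), and the 3 groups did not overlap. With the pools as 1 group this call was lost without WT replicate 1 (0.80), 2 (0.74) or 3 (0.67), while each pool by itself was called (0.52 in KO1 and 0.92 in KO2). LAMA1 made up 3.61% of the laminin alpha level in KO1 and 5.17% in KO2, against 1.58% in WT, and LAMA5 remained the leading chain at 82.3% and 82.4%. LAMA2 was not called at 1.46 to 1.60 CPM in WT and 1.30 to 1.78 CPM in KO.

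Beta and gamma chains shared by many laminins changed less. LAMC1 had 353 ± 13.0 CPM in WT (SD, n = 3) and 257 ± 3.95 CPM in KO (SD, n = 6; log2 fold change −0.48, SE 0.0300, edgeR adjusted p = 3.25e-07). LAMB2 had 414 ± 5.98 CPM in WT and 341 ± 14.3 CPM in KO (log2 fold change −0.30, SE 0.0368, edgeR adjusted p = 3.26e-05). LAMB1 was called in KO2 (log2 fold change −0.50, SE 0.0389, edgeR adjusted p = 1.12e-07), with 104, 107 and 109 CPM against 140.0, 158 and 154 CPM in WT. In KO1 it lay at 140.0 to 146 CPM, overlapping the WT libraries, and was not called (edgeR adjusted p = 0.0269).

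To compare the KO cells with cells whose AKT is active by itself, the 3 myrAKT libraries were set against the same WT libraries. Here 9 of the 26 members were lower (17.3% of all genes) and 7 were higher (12.7% of all genes), and the median log2 fold change was −0.04, beside 0.02 for all genes. Of the 9 alpha subunits 4 were lower and 1 higher, of the 7 beta subunits 2 were lower and 3 higher, and of the 10 laminin chains 3 were lower and 3 higher. The higher beta subunits include ITGB6, which passed the filter through its myrAKT libraries alone. With library totals or upper-quartile normalization, 7 members were lower, and of all genes called 51.0% and 50.5% were higher, against 42.3% with TMM. Without WT replicate 3 the number of lower members was 5, as ITGA2, ITGA3, ITGB3 and LAMC1 lost their calls.

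ITGB4 rose most in myrAKT cells, to 259, 294 and 280.0 CPM, against 72.4, 78.0 and 81.1 CPM in WT (log2 fold change 1.88, SE 0.0604, edgeR adjusted p = 1.21e-11). Its share of the beta subunit level was 32.0% ± 1.67 in myrAKT cells and 10.4% ± 0.180 in WT (SD, n = 3), and it passed ITGB5 (19.0%) to stand behind ITGB1. ITGA7 rose to 5.67, 6.74 and 5.78 CPM, against 2.55, 2.16 and 2.30 CPM in WT (log2 fold change 1.41, SE 0.135, edgeR adjusted p = 7.64e-07). Both genes lay above every WT library in every myrAKT library.

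ITGB8 had 5.15 to 7.75 CPM in myrAKT cells and 2.66 to 3.87 CPM in WT (log2 fold change 0.99, SE 0.159, edgeR adjusted p = 1.15e-04), with the call lost without myrAKT replicate 1 (0.87). ITGB6, an epithelial partner of ITGAV, had 1.06, 0.967 and 1.12 CPM in myrAKT cells against 0.429, 0.449 and 0.521 CPM in WT (log2 fold change 1.20, SE 0.246, edgeR adjusted p = 8.70e-04). ITGB6 passed the filter through the myrAKT libraries alone, on 31 to 45 counts each, and its call was lost in each of the 6 fits that left out a library (1.12 to 1.28) and with DESeq2, and the filter itself placed it among the genes that could be higher.

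LAMA3 and LAMB3 rose as well. LAMA3 had 79.7, 93.7 and 101 CPM (log2 fold change 0.56, SE 0.0896, edgeR adjusted p = 1.12e-04) and LAMB3 811, 839 and 747 CPM (log2 fold change 0.52, SE 0.0489, edgeR adjusted p = 5.94e-07), each above all WT libraries. The LAMA3 call was lost without WT replicate 3 (0.53) or myrAKT replicate 2 (0.53).

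**Figure D3:**
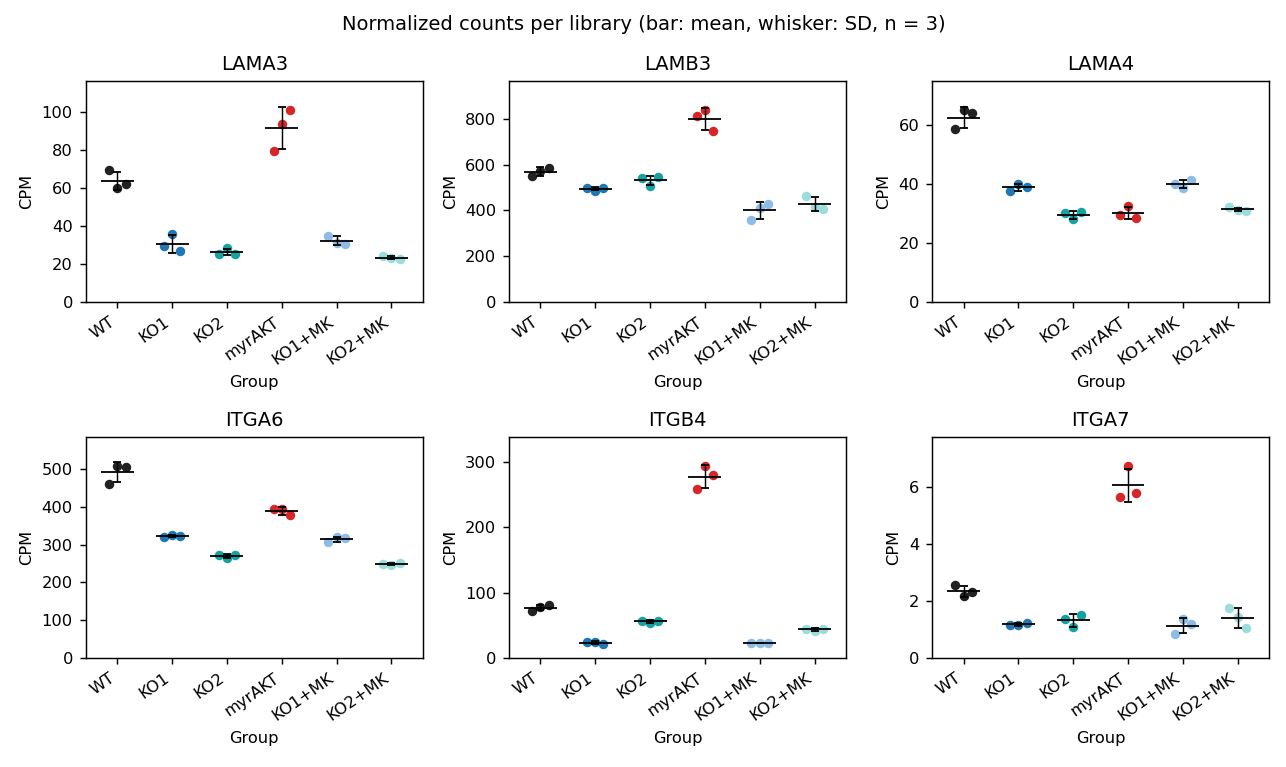
CPM per library of the laminin chains LAMA3, LAMB3 and LAMA4, of both subunits of the hemidesmosome integrin (ITGA6, ITGB4) and of ITGA7 in all 6 groups, with the mean as a bar and the SD as a whisker. The myrAKT libraries are the highest for 4 of the 6 genes, and for ITGA6 and LAMA4 they lie at 378 to 396 CPM and 28.3 to 32.3 CPM, below the WT libraries.

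Lower in myrAKT cells were genes of several roles. LAMA4 had 29.3, 32.3 and 28.3 CPM, against 58.4, 65.0 and 63.8 CPM in WT (log2 fold change −1.03, SE 0.0554, edgeR adjusted p = 2.18e-09). ITGA1 had 36.8 to 40.9 CPM and fell (log2 fold change −0.84, SE 0.0709, edgeR adjusted p = 2.07e-07), as did ITGB3 with 4.25 to 5.63 CPM (log2 fold change −0.88, SE 0.144, edgeR adjusted p = 1.38e-04), whose call was lost without WT replicate 3 (−0.82). ITGB5 (−0.42), LAMB1 (−0.40) and ITGA6 (−0.31) were also lower on the log2 scale. ITGA2 (−0.39), ITGA3 (−0.29) and LAMC1 (−0.22) were called as well. ITGA2 lost its call without WT replicate 2 (−0.31) or 3 (−0.37) and without myrAKT replicate 1 (−0.36) or 2 (−0.39), ITGA3 without WT replicate 2 (−0.28) or 3 (−0.27), and LAMC1 in 5 of 6 such fits, all except that without myrAKT replicate 3 (−0.25 to −0.20). Not called were ITGA5, ITGA10, ITGAV, ITGAE, ITGB1, ITGB2, LAMA1, LAMA2, LAMA5 and LAMB2.

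Since both comparisons share the WT libraries, the difference between KO and myrAKT cells was tested directly. KO cells were lower for 16 members, against 16.7% of all genes, and higher for 1, against 19.1% of all genes, with a median log2 fold change of −0.42 beside 0.00236 for all genes. Of all genes called, 53.3% were higher with TMM, 44.8% with upper-quartile scaling and fewer still with library totals, and the counts of members stayed at 16 and 1 in both. ITGB4 differed most (log2 fold change −2.86, SE 0.300, edgeR adjusted p = 7.47e-06), followed by ITGA7 (log2 fold change −2.33, SE 0.121, edgeR adjusted p = 4.08e-08), ITGA10 (log2 fold change −1.83, SE 0.0989, edgeR adjusted p = 5.34e-08) and ITGB6 (log2 fold change −1.79, SE 0.207, edgeR adjusted p = 1.64e-05), the last of which passed the filter through its myrAKT libraries alone. The laminin chains LAMA3 and LAMB3 were lower in KO cells, LAMA3 with a log2 fold change of −1.74 (SE 0.112, edgeR adjusted p = 1.80e-07) and LAMB3 with a log2 fold change of −0.69 (SE 0.0476, edgeR adjusted p = 2.94e-07). Further lower members were LAMA5 (−0.67), ITGA5 (−0.64), ITGB2 (−0.52), ITGA6 (−0.44), LAMB2 (−0.37), ITGA2 (−0.35), ITGAV (−0.34), ITGB1 (−0.33) and LAMC1 (−0.26). Of these, ITGA2 lost its call without myrAKT replicate 2 (−0.35) or 3 (−0.31), ITGA6 without myrAKT replicate 1 (−0.45), 2 (−0.43) or 3 (−0.45), and ITGB2 (−0.43) and LAMC1 (−0.23) without myrAKT replicate 2. LAMA1 was the member that was higher in KO than in myrAKT cells (log2 fold change 1.07, SE 0.122, edgeR adjusted p = 1.39e-05). Both groups lay below WT for ITGA1 and LAMA4, and KO and myrAKT cells were not called as different from each other for these (edgeR adjusted p = 0.267 and 0.306), with 44.5 ± 7.22 CPM and 38.4 ± 2.22 CPM for ITGA1 and 34.1 ± 5.18 CPM and 30.0 ± 2.07 CPM for LAMA4 (SD, n = 6 and n = 3). The pools differed here. KO1 lay above every myrAKT library for ITGA1 (47.5 to 53.2 against 36.8 to 40.9 CPM) and LAMA4 (37.6 to 39.7 against 28.3 to 32.3 CPM). KO2 overlapped the myrAKT libraries, at 36.1 to 39.7 and 28.0 to 30.4 CPM. Neither pool by itself was tested against myrAKT cells.

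To see whether AKT inhibition changed these levels in KO cells, MK2206-treated pools were compared with untreated pools. With both pools as 1 group, the difference between the pools stays in the spread of the fit. By edgeR 2 of the 26 were then lower (7.69%, near the 8.75% of all genes) and 0 were higher (12.8% of all genes). In this comparison 8 had an unadjusted p under 0.05, and DESeq2 called 3 lower and 1 higher. The median log2 fold change was −0.01, beside −0.00313 for all genes. The number of calls depended on the fit. With the pool as a covariate 6 were lower (among them LAMA5, LAMB1, LAMA1, LAMB3 and ITGA3) and 3 were higher, the collagen receptor subunits ITGA1, ITGA2 and ITGA10, where 16.7% and 19.7% of all genes were lower and higher. With all 18 libraries in 1 fit 7 were lower and 2 higher, where 19.0% and 18.2% of all genes were. Of all genes called, TMM placed 59.3% on the higher side, upper-quartile normalization 48.3% and plain library totals 63.3%. In KO1 by itself, 4 members were lower (8.26% of all genes) and 2 higher (10.9% of all genes), and in KO2 5 were lower (8.78% of all genes) and 0 higher (13.1% of all genes), where 14 had an unadjusted p under 0.05 and DESeq2 called 1 higher. The share of all called genes that were higher was 56.9% in KO1 and 59.9% in KO2 with TMM, and 47.9% and 47.5% with upper-quartile normalization.

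Laminin chains made up most of these calls. LAMA5 had 455, 468 and 427 CPM in KO1 and 350.3, 344 and 346 CPM in KO1+MK (log2 fold change −0.34, SE 0.0412, edgeR adjusted p = 2.29e-05). In KO2 it had 403, 437 and 394 CPM without and 282, 251 and 237 CPM with MK2206 (log2 fold change −0.65, SE 0.0573, edgeR adjusted p = 4.82e-07). Treated and untreated libraries did not overlap in either pool, and all were below WT. For both pools together LAMA5 had a log2 fold change of −0.48 (SE 0.0935, edgeR adjusted p = 7.36e-04), a call lost in 7 of the 12 fits that left out a library (without any KO1 replicate, without KO2 replicate 1 or 2, and without KO2+MK replicate 1 or 2, at −0.50 to −0.45) and with library totals (−0.46).

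LAMB1 was lower in KO1+MK than in KO1, 108 to 115 CPM against 140.0 to 146 CPM (log2 fold change −0.33, SE 0.0354, edgeR adjusted p = 9.91e-06), and in KO2+MK than in KO2, 66.8 to 77.8 CPM against 104 to 109 CPM (log2 fold change −0.50, SE 0.0488, edgeR adjusted p = 1.21e-06). LAMB3 was lower as well, in KO1 (log2 fold change −0.28, SE 0.0476, edgeR adjusted p = 4.37e-04) and in KO2 (log2 fold change −0.28, SE 0.0421, edgeR adjusted p = 8.40e-05), with 359 to 462 CPM in the 6 treated and 486 to 545 CPM in the 6 untreated libraries. For both pools together LAMB3 had a log2 fold change of −0.28 (SE 0.0491, edgeR adjusted p = 3.69e-04). These LAMB3 calls were lost in 4 of the 6 fits without a library in KO1 (any KO1 replicate or KO1+MK replicate 2, −0.30 to −0.27), in 2 of 6 in KO2 (KO2 replicate 1 or KO2+MK replicate 2, both −0.26) and in 5 of 12 for both pools (KO2 replicate 1 or 3, KO1+MK replicate 2 and KO2+MK replicate 2 or 3, −0.29 to −0.26).

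LAMA1, the member that was higher in KO cells, was lower with MK2206 in KO1, with 16.1, 15.4 and 14.6 CPM against 22.4, 21.2 and 22.0 CPM (log2 fold change −0.47, SE 0.0596, edgeR adjusted p = 3.32e-05). In KO2 it lay at 23.8 to 24.0 CPM with and 28.0 to 29.1 CPM without MK2206 and was not called (edgeR adjusted p = 0.00237). ITGB4 was lower in KO2 (log2 fold change −0.32, SE 0.0433, edgeR adjusted p = 2.96e-05). Without KO2 replicate 1 or KO2+MK replicate 2 the number of lower members in KO2 was 3. The collagen receptors ITGA1 and ITGA2 rose in KO1, ITGA1 from 47.5 to 53.2 CPM to 63.1 to 64.3 CPM (log2 fold change 0.35, SE 0.0488, edgeR adjusted p = 7.01e-05) and ITGA2 from 607 to 641 CPM to 761 to 805 CPM (log2 fold change 0.36, SE 0.0385, edgeR adjusted p = 8.18e-06). Without KO1+MK replicate 1, ITGA10 and ITGAV were called too and 4 members were higher in KO1.

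**Figure D4:**
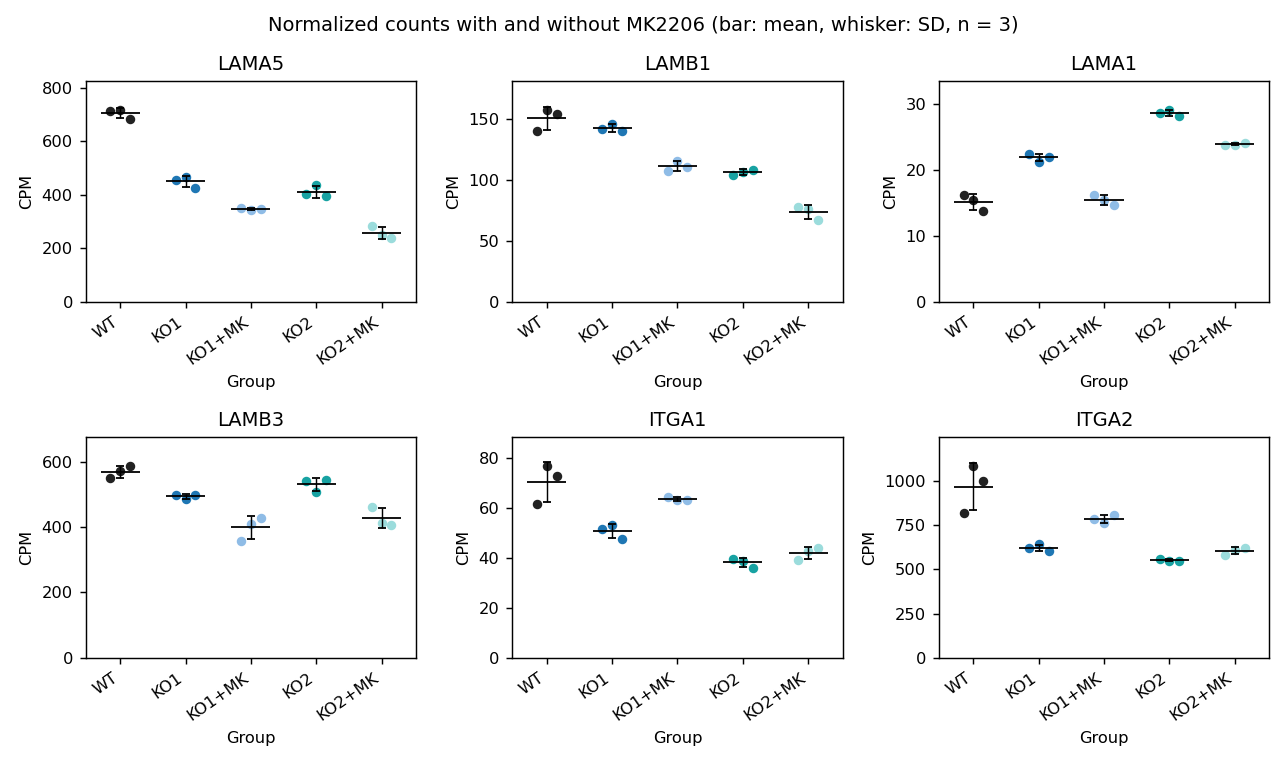
CPM per library of LAMA5, LAMB1, LAMA1, LAMB3, ITGA1 and ITGA2 in WT cells and in both KO pools with and without MK2206, with the mean as a bar and the SD as a whisker. LAMA5 and LAMB1 are lower in each treated pool than in the same pool untreated, and LAMA1 in KO1+MK lies at 14.6 to 16.1 CPM, beside 13.8 to 16.1 CPM in WT.

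A call in 1 pool and not in the other is not a difference between them, and the MK2206 effect was therefore compared between the pools. None of the 26 members was called by edgeR (0.0128% of all genes were lower and 0% higher), 10 had an unadjusted p under 0.05, and DESeq2 called 0. The untreated pools themselves differed in 11 members, with 3 lower (5.54% of all genes) and 8 higher (7.06% of all genes) in KO1 than in KO2. Among those higher in KO1 were the receptor subunits ITGA1 (0.40), ITGA5 (0.18), ITGA6 (0.25), ITGB3 (0.90) and ITGB5 (0.24) and the chains LAMA4 (0.38) and LAMB1 (0.41), in log2 fold change. Lower in KO1 were ITGB4 (−1.28), ITGB8 (−0.70) and LAMA1 (−0.40). The ITGA5 call was lost without KO1 replicate 1 (0.18) and that of ITGB3 without KO1 replicate 2 (0.79). That of ITGB8 was lost without any KO1 replicate and without KO2 replicate 1 or 2 (−0.76 to −0.61).

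Genes that work with integrins and laminins were followed as lists. Of 36 activators and adaptors of the integrin tail, 34 were tested, and of these 6 were higher and 6 lower in KO than in WT cells, beside 15.5% higher and 16.6% lower of all genes, with a median log2 fold change of −0.05. PTK2B, a focal adhesion kinase relative, was lower (3.31 ± 0.244 CPM in WT, 1.19 ± 0.0798 CPM in KO; log2 fold change −1.49, SE 0.108, edgeR adjusted p = 6.99e-07), and TNS1, the adaptor tensin, was higher (17.1 ± 0.771 CPM and 29.0 ± 2.90 CPM; log2 fold change 0.75, SE 0.0818, edgeR adjusted p = 1.34e-05). Of 30 ligands other than laminins and collagens 20 were tested, of which 2 were higher and 8 lower (median −0.30), beside the same 15.5% and 16.6% of all genes. LTBP1, which holds latent TGF-beta in the matrix, had 103 ± 18.4 CPM in WT and 46.1 ± 2.86 CPM in KO (log2 fold change −1.18, SE 0.0834, edgeR adjusted p = 6.32e-07), and VWF, at 0.981 ± 0.275 CPM in WT and 0.402 ± 0.0965 CPM in KO, was lower on 9 to 42 counts per library (log2 fold change −1.30, SE 0.253, edgeR adjusted p = 9.42e-04; SD, n = 3 and n = 6 throughout). VWF reached at most 0.512 CPM in KO libraries and 0.555 CPM in treated ones, so it passed the filter through WT and myrAKT libraries alone. The filter itself thus placed VWF among the genes that could be lower in KO.

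Of 22 basement membrane partners of laminins 16 were tested, of which 2 were higher and 3 lower (median −0.14), which is near the 15.5% and 16.6% of all genes. HSPG2, the proteoglycan perlecan, had 153 ± 7.28 CPM in WT and 69.9 ± 5.60 CPM in KO (log2 fold change −1.15, SE 0.0692, edgeR adjusted p = 2.63e-07), and BCAM, a receptor for LAMA5, had 25.1 ± 0.791 CPM and 16.4 ± 0.666 CPM (log2 fold change −0.64, SE 0.0443, edgeR adjusted p = 5.85e-07; SD, n = 3 and n = 6). All 16 membrane partners of integrins were tested, of which 1 was higher and 6 were lower (median −0.15), beside those shares of all genes. Named here are CD82, a tetraspanin (120.5 ± 15.1 CPM in WT, 67.4 ± 5.94 CPM in KO; log2 fold change −0.85, SE 0.0766, edgeR adjusted p = 3.03e-06), and MMP14, a membrane-bound matrix protease (645 ± 64.5 CPM and 403 ± 21.0 CPM; log2 fold change −0.69, SE 0.0526, edgeR adjusted p = 9.61e-07), both lower. In myrAKT against WT cells the numbers higher and lower were 7 and 12 of the 34 adaptors, 6 and 7 of the 20 ligands, 3 and 5 of the 16 basement membrane genes and 5 and 5 of the 16 membrane partners, beside 12.7% and 17.3% of all genes. With MK2206, in the same order, they were 1 and 8, 2 and 1, 0 and 3, and 1 and 1, beside 12.8% and 8.75% of all genes.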

How the data were processed

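The deposited matrix holds raw read counts per gene, made by the authors from rRNA-depleted RNA by trimming with Trim Galore, alignment with HISAT2 to hg38 and counting with featureCounts, with FastQC and MultiQC for quality. Annotation, strand setting and the treatment of reads on several genes are not given in the sources used here. The libraries were sequenced over 2 runs, and which library was in which run is not given in the sources used here.

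Members were taken by symbol from GENCODE names. The 15587 genes that reached 1 CPM in 3 or more of 18 libraries were tested with the quasi-likelihood test of edgeR 4.0.16 in R 4.3.3 after TMM normalization, with only the groups of a comparison in each fit, and p-values were adjusted by Benjamini-Hochberg over all genes tested. A gene was called at an adjusted p of at most 0.001. Levels are CPM on TMM-normalized libraries, given as mean ± SD. Per-kilobase levels used GENCODE 44 exon lengths. Motifs were searched in RefSeq promoters. DESeq2 1.42.0, other normalizations and filters, all libraries in 1 fit, a replicate block, the pools as separate groups or as a covariate, and fits without each library were alternatives. The test was tried on simulated counts. The members and lists, and the tests, were chosen with earlier results of these data known.

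Values in every library are given for members called in KO against WT with a fold change of at least 1.5, or called in myrAKT or MK2206 comparisons with at least 2, fold changes for called members, and from each list the 2 called genes with the largest change. Other values were chosen after they were seen. A member that is not reported here by itself remains in the counts and medians. Between 23419198 and 39319910 reads were counted per library, and a gene of few counts is measured less precisely. Replicates of a group differed by more than counting noise (mean chi-square over genes 2.27 to 11.6), so none was a copy of another.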

Additional observations from a re-analysis of the deposited data

Results flagged for a closer look

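Of the 4 integrin beta subunits called when KO1 was compared with KO2 directly, 3 differed by at least 1.5-fold. ITGB3 was higher in KO1 than in KO2 (log2 fold change 0.90, edgeR adjusted p = 1.46e-04), with every library of KO1 above every library of KO2. ITGB4 was lower in KO1 than in KO2 (−1.28, edgeR adjusted p = 5.74e-11), again in every library. ITGB8 was lower in KO1 as well (−0.70, edgeR adjusted p = 4.22e-04), and while its 3 libraries in KO1 lay within or below the WT range, those of KO2 lay above it. ITGB8 was not called against WT in either pool, and its call between the pools was lost in 5 of the 6 fits that left out a library. Each of these pools was made with its own sgRNA set, and the difference of pool and of sgRNA set cannot be told apart.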

How the results depend on the processing

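No called log2 fold change turned its direction under any alternative. Of 118 called values of members, 116 stayed called with RLE size factors and with upper-quartile normalization, 115 with library totals, with DESeq2, without a filter and with all 18 libraries in 1 fit, and 107 with a replicate block. With at least 10 counts in every library, 116 of 117 stayed called. In fits without 1 library 732 of 828 did. In KO against WT the number of lower members was 17 to 21 in the other settings, and 15 with the block.

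Replicate numbers did not pair the samples, with correlations of same-numbered libraries between −0.519 and 0.297 and 0 of 15 pairs of groups in which every number correlated above 0.1. The samples share only a number. With the replicate block, the number of higher members in KO against WT was 0, and with MK2206 in both pools 0 were lower and 0 higher, LAMA5 and LAMB3 having lost their calls.

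MK2206 in both pools was the comparison that moved most. The number of lower members was 1 with library totals, 7 with all 18 libraries in 1 fit and 6 with the pool as a covariate. The number of higher members was 1 with library totals and with DESeq2 (ITGA10), 2 with all 18 libraries and 3 with the covariate. In KO2, 1 member (ITGA2) was higher with DESeq2 and without a filter. The cause was not tested.

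Without 1 library, the number of lower members ranged from 13 to 18 in KO, 18 to 20 in KO1, 17 to 19 in KO2 and 5 to 9 in myrAKT cells against WT, 12 to 17 in KO against myrAKT, 0 to 2 with MK2206 in both pools, 3 to 4 in KO1, 3 to 6 in KO2, and 2 to 3 in KO1 against KO2. The number of higher members ranged from 0 to 1 in KO, 5 to 6 in myrAKT, 0 to 1 with MK2206 in both pools, 2 to 4 in KO1, 0 to 1 in KO2 (1 without KO2+MK replicate 1, ITGA2) and 7 to 9 in KO1 against KO2, and it was 1 in each of the fits of KO1, of KO2 and of KO against myrAKT. Where a fit left a group with 2 libraries, these carried the spread of that group. Low counts limit ITGB6, ITGA7 and the 12 untested members.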
